A study of Bos taurus with 15 samples.

Results

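Chromatin in the bovine blastocyst was described here through 10 genes that encode histone variants and high mobility group (HMG) proteins. The histone genes were H2AZ1, H2AZ2, H3-3A, H3-3B and H2AX, and the HMG genes were HMGN1, HMGN2, HMGN3, HMGB1 and HMGB2. The rule that names the genes lists symbols and uses no measured value, although it was drawn up with earlier results of these data known, and the genes were found through their NCBI Gene identifiers. All 10 were in the table of 10832 genes left by the authors' filter on low counts, so no member was lost to that filter.

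Most histone protein is made during S phase from clustered genes whose mRNAs lack a poly(A) tail. The replacement variants H2A.Z and H3.3 are made throughout the cell cycle and are exchanged into nucleosomes independently of DNA replication. H2A.Z marks promoters and enhancers, H3.3 marks transcribed and reprogrammed chromatin and is a major histone of the early embryo, and H2AX is phosphorylated around DNA breaks. HMGN proteins bind nucleosomes and loosen their packing, and HMGB proteins bind and bend DNA.

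The embryos were produced in vitro and collected as blastocysts, labelled as day 7. They were cultured without supplement (control, Co), with fresh extracellular vesicles of the oviduct (FeEV treatment), or with such vesicles after freezing (FoEV treatment). These oviductal EVs (oEVs) are membrane particles that the oviduct releases into its fluid, and they came from cows in the postovulatory stage whose oviducts were taken at a slaughterhouse. Fresh and frozen oEVs were portions of material from shared oviducts, so a freeze and thaw step separates these treatments. Each library was made from 1 ng of total RNA of a pool of 8 to 14 embryos, and 5 libraries were sequenced per treatment from pools selected for their RNA quality and amount. A pool holds trophectoderm, inner cell mass and hypoblast together, so fewer cells of a type and less RNA per cell cannot be told apart.

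Depth was low and unequal between treatments. The read counts per library summed to 2571558 to 2977004 for Co, 2136713 to 3808602 for FeEV and 3392613 to 4058887 for FoEV, so that every FoEV library was deeper than every Co library. Ribosomal RNA genes took 15.5 to 28.2% of the counts of a library. The blastocyst label was met by part of the markers: CDX2, KRT8, POU5F1, SOX2 and GATA6 had counts in every library. Other listed markers of the blastocyst lineages were low. SOX17 had 2 to 14 counts per library, GATA4 5 to 27, TDGF1 3 to 24 and ELF5 0 to 11. Of markers of other cells, the cumulus gene PTX3 was at 0 in 14 libraries, the oviductal gene OVGP1 had 0 to 6 counts per library, and FOXJ1 of ciliated cells was at 0 in 8. Other genes of these marker lists had counts in every library, with 36 to 140 for CYP19A1, 14 to 43 for FSHR, 11 to 20 for STAR, 18 to 96 for MUC16, 12 to 46 for PAX8 and 11 to 52 for TPPP3. Levels are given as CPM, read counts scaled to the size of the library, which are not divided by transcript length, so they are compared here between treatments and not between genes.

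The 10 members took 1008 to 1347 CPM of a library in sum, and single members had between 49 counts (HMGN3) and 1290 counts (HMGB1) in a library. No member passed an adjusted p of 0.05 in any comparison with the quasi-likelihood test of edgeR. In FoEV treatment vs. Co, 3 members, HMGB1, HMGB2 and H2AX, had an unadjusted p under 0.05, all with higher levels in FoEV. Among all genes tested, 15.1% had an unadjusted p under 0.05 in that comparison and 0.00923% an adjusted one, with 8.18% higher and 6.88% lower in FoEV at the unadjusted threshold. In FeEV treatment vs. Co the unadjusted count was 1 member (HMGB1, higher) against 4.15% of all genes, with 1.83% higher and 2.32% lower. In FoEV vs. FeEV treatment it was 0 members against 8.52% of all genes, 4.83% higher and 3.69% lower. DESeq2 gave the same numbers of members, 3, 1 and 0, at the unadjusted threshold and 0 at the adjusted one. Comparisons with Co share the 5 control libraries, and FoEV vs. FeEV treatment shares its libraries with both.

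**Figure D1:**
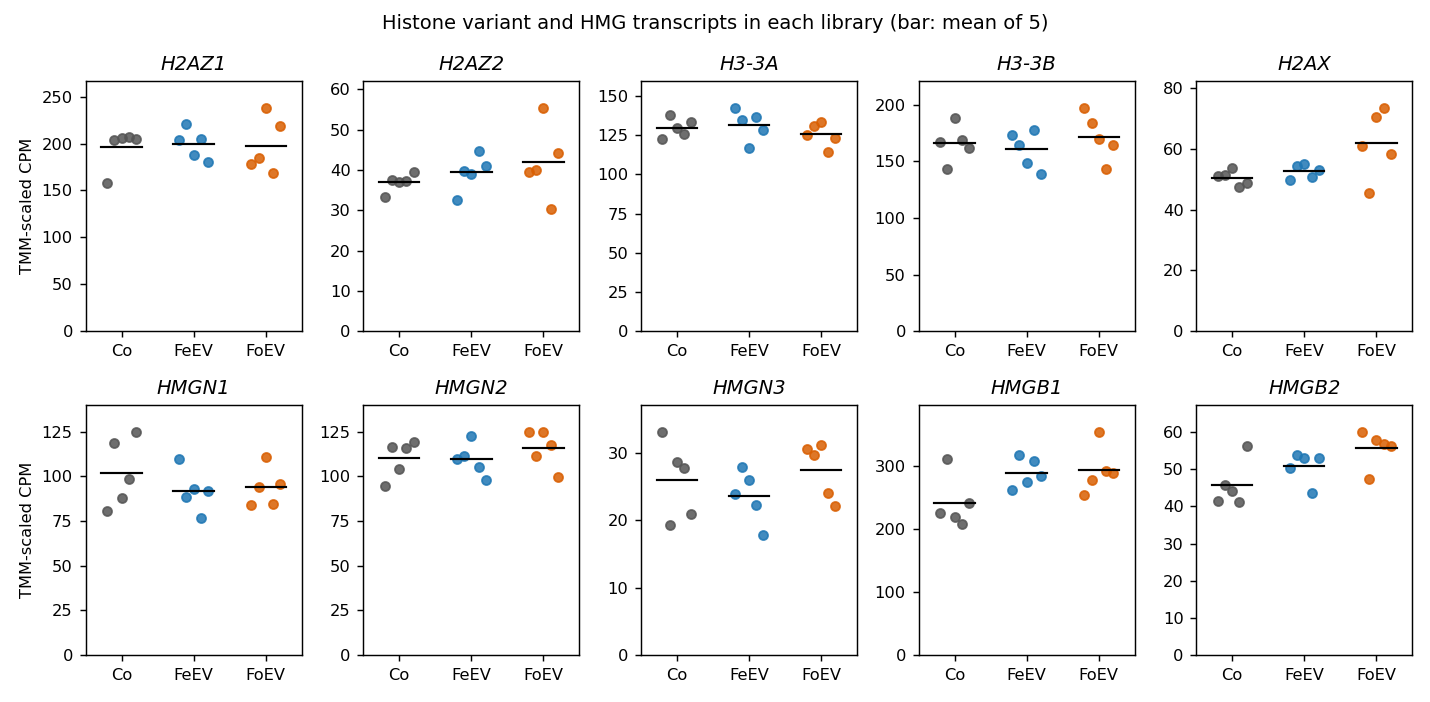
Levels in CPM of the 10 members in each of the 15 libraries, by treatment, with 1 point per library and the treatment mean. H2AX spreads from 45.4 to 73.4 CPM in FoEV against 47.4 to 53.5 CPM in Co, and HMGB1 of Co replicate 2 (311 CPM) lies among the oEV-treated libraries.

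HMGB1 and HMGB2, which carry a pair of HMG boxes each and act as DNA-bending chaperones of chromatin, had higher mean levels in both oEV treatments than in Co. HMGB1 had 226, 311, 219.6, 209 and 241 CPM in Co replicates 1 to 5. In FeEV replicates 1 to 5 it had 262, 318, 276, 308 and 285 CPM. In FoEV replicates 1 to 5 it had 255, 278, 355, 292 and 289 CPM. Thus every oEV-treated library lay above 4 of the 5 Co libraries, and the groups overlapped through Co replicate 2 alone. The mean was 241 ± 40.9 CPM (SD, n = 5) in Co, 289.8 ± 22.9 in FeEV and 294 ± 37.4 in FoEV.

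In FoEV treatment vs. Co the log2 fold change of HMGB1 was 0.28 ± 0.11 (SE), or 1.22-fold with a 95% interval of 1.04 to 1.42, with an adjusted p of 0.220 by edgeR. In FeEV treatment vs. Co it was 0.26 ± 0.11, or 1.199-fold (1.03 to 1.40), with an adjusted p of 1.00 by edgeR. In FeEV vs. Co the HMGB1 value ran from 0.21 to 0.37 when 1 library was left out. It missed the unadjusted threshold without Co replicate 1, 3 or 4 or FeEV replicate 2 or 4, and with the pool number as a block. Pool number here is the number that ends a library's label, which the labels do not call a pool or batch. FoEV and FeEV differed in HMGB1 by 0.02, with an interval of -0.20 to 0.24 on the log2 scale. Single libraries mattered for HMGB1: without FoEV replicate 3 the FoEV difference from Co was 0.20 and missed the unadjusted threshold (adjusted p = 0.390, edgeR), and without Co replicate 2 it was 0.39 (adjusted p = 0.145). Over all alternatives the adjusted p of HMGB1 in FoEV vs. Co ran from 0.0769 to 0.434 by edgeR and DESeq2.

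HMGB2, the paralog that is most abundant in dividing cells, had 41.6, 45.9, 44.2, 41.3 and 56.2 CPM in Co replicates 1 to 5. It had 50.4, 53.8, 53.2, 43.7 and 53.1 CPM in FeEV and 60.2, 47.4, 57.9, 56.8 and 56.4 CPM in FoEV. Every FoEV library was above 4 of the 5 Co libraries, and Co replicate 5 alone reached the FoEV range. HMGB2 was 0.28 ± 0.11 (SE) higher on the log2 scale in FoEV than in Co, 1.22-fold with an interval of 1.04 to 1.42 (adjusted p = 0.225, edgeR). The FeEV difference from Co was 0.15 with an interval of -0.08 to 0.38, and FoEV vs. FeEV treatment gave 0.13 with an interval of -0.09 to 0.35. Without Co replicate 5 the FeEV difference was 0.24 and passed the unadjusted threshold. With the pool number as a block the HMGB2 difference between FoEV and Co was 0.22 and missed the unadjusted threshold (adjusted p = 0.448, edgeR). The adjusted p of HMGB2 in FoEV vs. Co ran from 0.105 to 0.448 over all alternatives by edgeR and DESeq2.

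H2AX, the H2A variant that ATM and related kinases phosphorylate at DNA breaks, had 51.0, 51.3, 53.5, 47.4 and 48.8 CPM in Co replicates 1 to 5. It had 49.8, 54.2, 55.1, 50.6 and 53.1 CPM in FeEV, and 60.9, 45.4, 70.5, 73.4 and 58.3 CPM in FoEV. In 4 FoEV libraries H2AX exceeded every Co and FeEV library, while FoEV replicate 2 was below all of them. The coefficient of variation was 4.73% for Co, 4.36% for FeEV and 18.0% for FoEV, the means being 50.4, 52.5 and 61.7 CPM.

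H2AX in FoEV treatment vs. Co gave a log2 fold change of 0.29 ± 0.11 (SE), 1.22-fold with an interval of 1.04 to 1.44 (adjusted p = 0.234, edgeR). FoEV vs. FeEV treatment gave 0.23 (interval -0.01 to 0.46, adjusted p = 0.583 by edgeR), and FeEV vs. Co 0.06 (-0.18 to 0.30). The H2AX difference between FoEV and FeEV was 0.10 with thinned counts, ran from 0.16 (without FoEV replicate 4) to 0.32 (without FoEV replicate 2), and passed the unadjusted threshold without FoEV replicate 2 and with robust dispersion and a likelihood ratio test (0.26). The adjusted p of that difference was 0.284 or more under every alternative by edgeR and DESeq2. The H2AX value in FoEV vs. Co was 0.38 (adjusted p = 0.0741, edgeR) without FoEV replicate 2. It was 0.22 without FoEV replicate 4, 0.23 without FoEV replicate 3, 0.28 with the pool number as a block and 0.21 with all libraries thinned to the same total count, and under these 4 settings it missed the unadjusted threshold. Over all alternatives its adjusted p ran from 0.0741 to 0.468 by edgeR and DESeq2.

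Some trophectoderm markers had higher levels in FoEV, where HMGB1, HMGB2 and H2AX had their highest means. Of 9 such markers that passed the filter, 8 had a log2 fold change above 0 in FoEV treatment vs. Co and 4 an unadjusted p under 0.05 by edgeR, all higher (KRT18, KRT8, GATA2 and GATA3), against 8.18% of all genes, and none an adjusted one. TFAP2A was the exception in direction, at -0.49 (adjusted p = 0.444, edgeR). The 10 listed markers summed to 6519 to 8750 CPM in Co, 7091 to 10545 CPM in FeEV and 8418 to 11342 CPM in FoEV, sums made up mostly of KRT8 (3613 to 5997 CPM over all libraries) and KRT18 (2247 to 4587 CPM). ELF5 alone was at 0 in any library (3 of 15). Of 6 inner cell mass markers, NANOG alone had an unadjusted p under 0.05, with lower levels in FoEV, and of 5 hypoblast markers none had. NANOG was lower in FeEV than in Co as well, at -0.62 (unadjusted p = 0.034, edgeR), and missed the adjusted threshold. Its means were 80.4 CPM in Co, 52.1 in FeEV and 45.0 in FoEV, and FoEV vs. FeEV treatment gave -0.22. The 9 cumulus and granulosa markers summed to 29.7 to 45.1 CPM in Co, 31.9 to 49.4 in FeEV and 29.2 to 50.2 in FoEV. The 7 oviduct markers summed to 22.3 to 47.4 CPM in Co, 20.7 to 26.4 in FeEV and 20.4 to 44.5 in FoEV. Medians of the oviduct sums were 31.9 CPM in Co, 24.4 in FeEV and 31.4 in FoEV. The part of cell composition and of the deeper FoEV libraries in the member differences was not tested beyond the thinned counts, which match totals and not the share of ribosomal RNA.

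**Figure D2:**
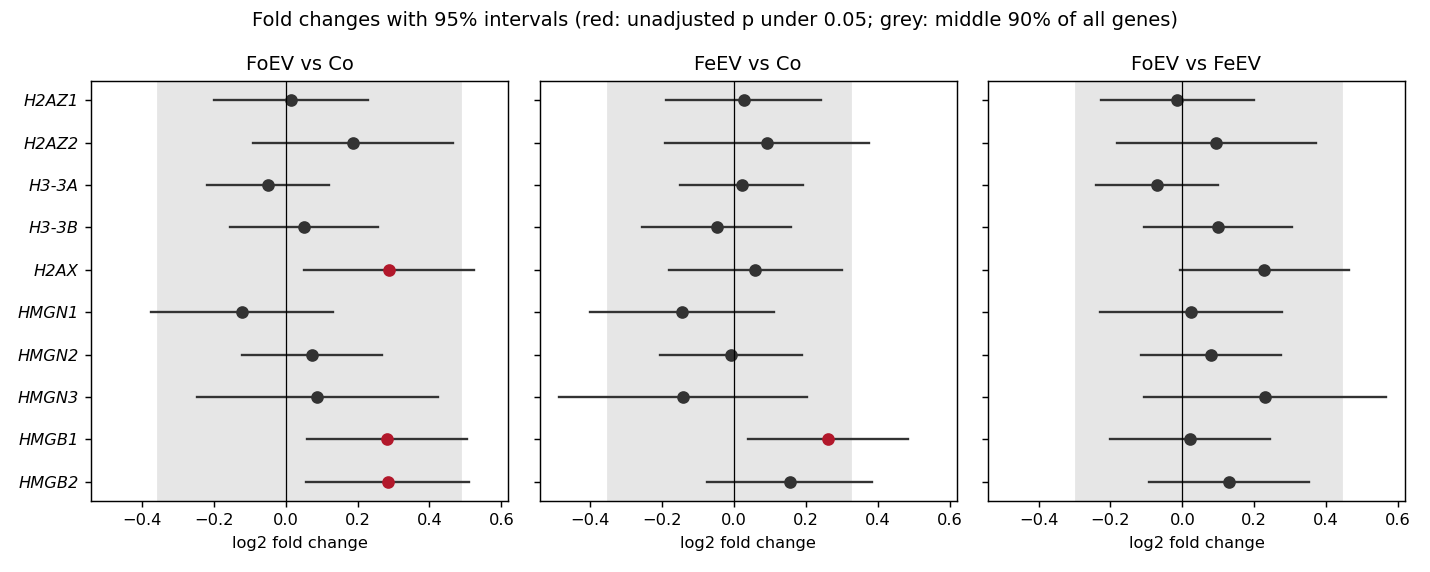
Log2 fold changes of the 10 members in the 3 comparisons, with 95% intervals of the quasi-likelihood fit. Intervals that exclude 0 belong to HMGB1, HMGB2 and H2AX in FoEV treatment vs. Co and to HMGB1 in FeEV treatment vs. Co, and none of the 4 passed the adjusted threshold.

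The genes of H2A.Z, which the SRCAP and TIP60 complexes place into nucleosomes beside transcription start sites, did not pass either threshold in any comparison. H2AZ1 had a mean of 196 ± 21.1 CPM (SD, n = 5) in Co, 199.7 ± 15.7 in FeEV and 198 ± 29.5 in FoEV. The Co value included replicate 1 at 158 CPM, whereas the other 4 Co libraries had 204 to 207 CPM. The log2 fold change of H2AZ1 was 0.01 in FoEV treatment vs. Co, with an interval of -0.20 to 0.23 that holds both directions.

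H2AZ2 encodes a protein nearly identical to that of H2AZ1 from a separate gene. It had 36.9 ± 2.27 CPM in Co, 39.4 ± 4.42 in FeEV and 41.9 ± 9.07 in FoEV, where FoEV replicate 3 reached 55.4 CPM and FoEV replicate 4 only 30.4. The FoEV difference from Co, 0.19 on the log2 scale (interval -0.09 to 0.46, adjusted p = 0.523, edgeR), missed both thresholds. It was 0.06 without FoEV replicate 3 and 0.07 with the pool number as a block, and without FoEV replicate 4 it was 0.28 and passed the unadjusted threshold (adjusted p = 0.387, edgeR). H2AZ1 reads outnumbered H2AZ2 reads by a log2 ratio of 2.40 ± 0.09 (SD) in Co libraries, 2.34 ± 0.21 in FeEV libraries and 2.25 ± 0.14 in FoEV libraries. The FoEV ratio was 0.15 below Co, which gave p = 0.0952 in a two-sided exact permutation test and an adjusted p of 0.571 over the 12 ratio comparisons. With 5 libraries against 5 the smallest p such a test allows is 0.00794.

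H3-3A and H3-3B encode the same H3.3 protein from separate genes, and H3.3 is placed by HIRA at transcribed genes and by DAXX with ATRX at repeats. H3-3A had the tightest values of the members, with 129.8 ± 6.13 CPM in Co, 132 ± 9.72 in FeEV and 125.5 ± 7.61 in FoEV. Its standard deviation within treatments, 0.0897 on the log2 scale, was undercut by 0.979% of all genes, the median gene having 0.247. H3-3B had 166 ± 16.1 CPM in Co, 161 ± 16.3 in FeEV and 172 ± 20.3 in FoEV. Differences between treatments were within -0.07 and 0.10 on the log2 scale for both genes, and all 6 intervals held 0.

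The log2 ratio of H3-3A to H3-3B reads was -0.35 ± 0.19 (SD) for Co, -0.28 ± 0.10 for FeEV and -0.45 ± 0.13 for FoEV. FoEV was 0.16 below FeEV (exact permutation p = 0.0476, two-sided), and the adjusted p over 12 ratio comparisons was 0.571. Of near-copies of H3.3, only H3-5 and H3-3D were looked up, by symbol: H3-5 had 1 to 5 counts per library and H3-3D had 0 in all 15. Pseudogenes and copies under other names were not searched, so their share of the reads is not known. A count of 0 allows up to 3 reads per library, counting error only.

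**Figure D3:**
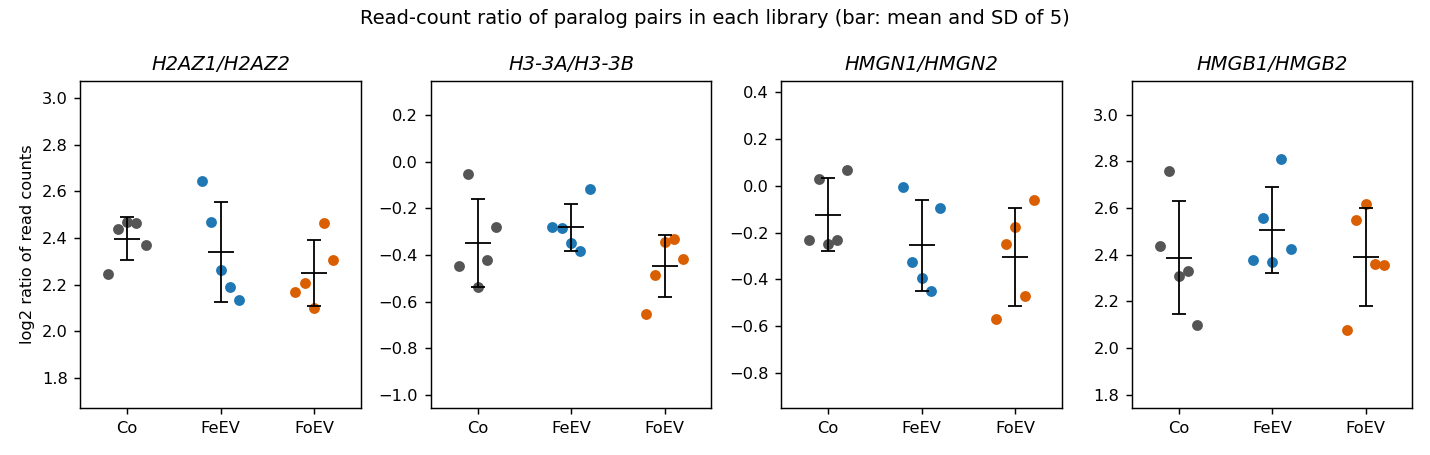
Log2 ratios of read counts within the 4 paralog pairs, with 1 point per library and the mean with SD per treatment. Treatments overlap in every pair, and the means of HMGB1 to HMGB2 lie at 2.39 in Co, 2.51 in FeEV and 2.39 in FoEV.

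The HMGN genes, whose products bind the nucleosome core and compete with linker histone H1, had no member near the threshold. HMGN1 had 102 ± 19.3 CPM in Co, 92.1 ± 11.7 in FeEV and 93.8 ± 10.8 in FoEV, with single libraries from 76.97 to 125.2 CPM. Its log2 fold change was -0.12 (interval -0.38 to 0.13) in FoEV vs. Co and -0.14 (-0.40 to 0.11) in FeEV vs. Co. HMGN2, the most evenly measured of the HMG genes, had 110.2 ± 10.4, 109 ± 9.02 and 116 ± 10.6 CPM in Co, FeEV and FoEV. HMGN3, the member with the fewest reads, had 25.9 ± 5.77, 23.6 ± 3.81 and 27.5 ± 4.16 CPM, and in Co its libraries ran from 19.2 to 33.2 CPM. HMGN4, a near-copy of HMGN2, had 32 to 74 counts per library. HMGN3 also had the widest intervals, with -0.11 to 0.57 on the log2 scale for FoEV vs. FeEV treatment.

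Over all 30 member comparisons the 95% intervals lay between 0.713-fold and 1.48-fold. Both bounds belonged to HMGN3, while that of H3-3A in FoEV vs. Co was as narrow as 0.859 to 1.09-fold. The members with a log2 fold change above 0 numbered 8 of 10 in FoEV vs. Co, 6 of 10 in FeEV vs. Co and 8 of 10 in FoEV vs. FeEV. The median was 0.08, 0.02 and 0.09, beside 0.01, 0.00 and 0.01 over all genes. The HMGB1 to HMGB2 ratio differed by 0.00 between FoEV and Co (exact permutation p = 0.976), and the HMGN1 to HMGN2 ratio by -0.18 (exact permutation p = 0.143, adjusted p = 0.571).

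Members varied together to different degrees within treatments. Over the deviations of the 15 libraries from their treatment means, the 45 pairs of members had a median Pearson r of 0.16, and 29 pairs were above 0. These correlations are descriptions, since all genes of a library share its depth and scaling. H2AZ1 and H2AZ2 had the highest r, 0.68, followed by H3-3B with HMGN3 (0.60), H2AZ1 with H3-3A (0.58) and H2AZ1 with HMGN1 (0.54). H3-3B with HMGB1 had the lowest, -0.44, and HMGN1 with HMGN3 had -0.43. The HMGB pair, by contrast with the H2A.Z pair, did not lead: HMGB1 was most like H2AZ2 (0.46) and HMGB2 most like HMGN1 (0.52). H2AX was most like HMGB2 (0.44), and HMGN2 was most like HMGN1 (0.47).

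**Figure D4:**
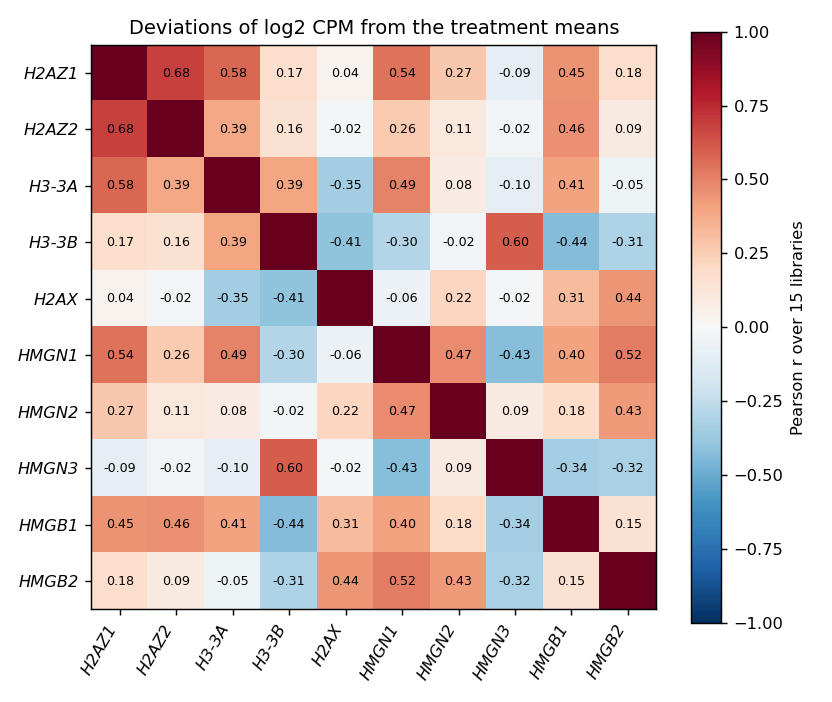
Pearson r between the members' log2 CPM deviations from treatment means over 15 libraries. Values run from -0.44 (H3-3B with HMGB1) to 0.68 (H2AZ1 with H2AZ2).

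The mean of the members was highest in FoEV replicate 3, 0.19 above its treatment mean on the log2 scale, and lowest in FoEV replicate 4, at -0.10. H2AX went against this order, having its highest value, 73.4 CPM, in FoEV replicate 4. Among the genes outside the members, the profiles most like the mean of the members were those of RNF138 (r = 0.90 over 15 libraries), MRPS21 (0.86) and SRSF9 (0.81).

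Genes that work with the members were counted in the same fit, and none had an adjusted p under 0.05 in any comparison in this fit. Over all genes, 5665 of 10832 had a log2 fold change above 0 in FoEV treatment vs. Co and 5528 in FeEV treatment vs. Co. Among 13 genes of H2A.Z exchange, 10 had a log2 fold change above 0 in FoEV treatment vs. Co, with a median of 0.07. Of these ZNHIT1, a subunit of the SRCAP complex, had 0.44 (adjusted p = 0.235, edgeR), and ACTL6A, an actin-related subunit of chromatin remodelers, had -0.30 (adjusted p = 0.259). Of the 7 genes of H3.3 deposition, 6 were above 0 and none had an unadjusted p under 0.05, DAXX having 0.25 and UBN2 of the HIRA complex -0.25. Between FoEV and FeEV the H3.3 chaperone DAXX differed by 0.36 (adjusted p = 0.563, edgeR).

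The kinases and readers of phosphorylated H2AX lay on the other side of 0 from H2AX itself in FoEV treatment vs. Co, with 7 of 8 genes below 0 and a median of -0.14. RNF168, a ubiquitin ligase that acts on H2A at breaks, had 37.5 ± 4.07 CPM in Co and 28.7 ± 3.57 in FoEV, a log2 fold change of -0.39 (adjusted p = 0.208, edgeR). ATM, the kinase that phosphorylates H2AX, had 181 ± 26.2 CPM in Co, 189 ± 15.5 in FeEV and 153 ± 18.7 in FoEV. Its log2 fold change was -0.24 in FoEV vs. Co (adjusted p = 0.290) and -0.30 in FoEV vs. FeEV (adjusted p = 0.496) by edgeR. In FeEV treatment vs. Co, 5 of the same 8 genes were above 0, with a median of 0.04.

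Of the 8 other HMG genes that passed the filter, 5 were above 0 in FoEV treatment vs. Co. Among them HMG20B, a subunit of the LSD1 complex, had 22.9 to 36.9 CPM in Co and 35.1 to 47.4 CPM in FoEV, with a log2 fold change of 0.36 (adjusted p = 0.241, edgeR). Other core variants, 4 genes with H2AJ at 0.31 and MACROH2A1 at 0.14, had no unadjusted p under 0.05. Of 7 linker histones 5 were above 0, while H1-1 had -0.49 (adjusted p = 0.270, edgeR) and H1-3 had 0.22.

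Replication-dependent histones, the clustered genes that replacement variants stand in for, were measured because the libraries came from total RNA. Of 44 genes that passed the filter, 30 were above 0 in FoEV treatment vs. Co, 8 had an unadjusted p under 0.05 and a higher level, and 0 had a lower one, beside 8.18% higher and 6.88% lower over all genes. The median was 0.15. H2AC19 had 3.28 to 5.75 CPM in Co and 6.71 to 10.5 CPM in FoEV, a log2 fold change of 0.86 (adjusted p = 0.131, edgeR). H2AC13 had 12.8 to 16.9 CPM in Co and 17.0 to 30.3 CPM in FoEV, with 0.60 (adjusted p = 0.131). In FeEV treatment vs. Co, 34 of the 44 were above 0, 4 had an unadjusted p under 0.05 and a higher level beside 1.83% of all genes, and the median was 0.14. These genes are near-identical copies of one another, so reads can be split or lost between them and single genes are uncertain.

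**Figure D5:**
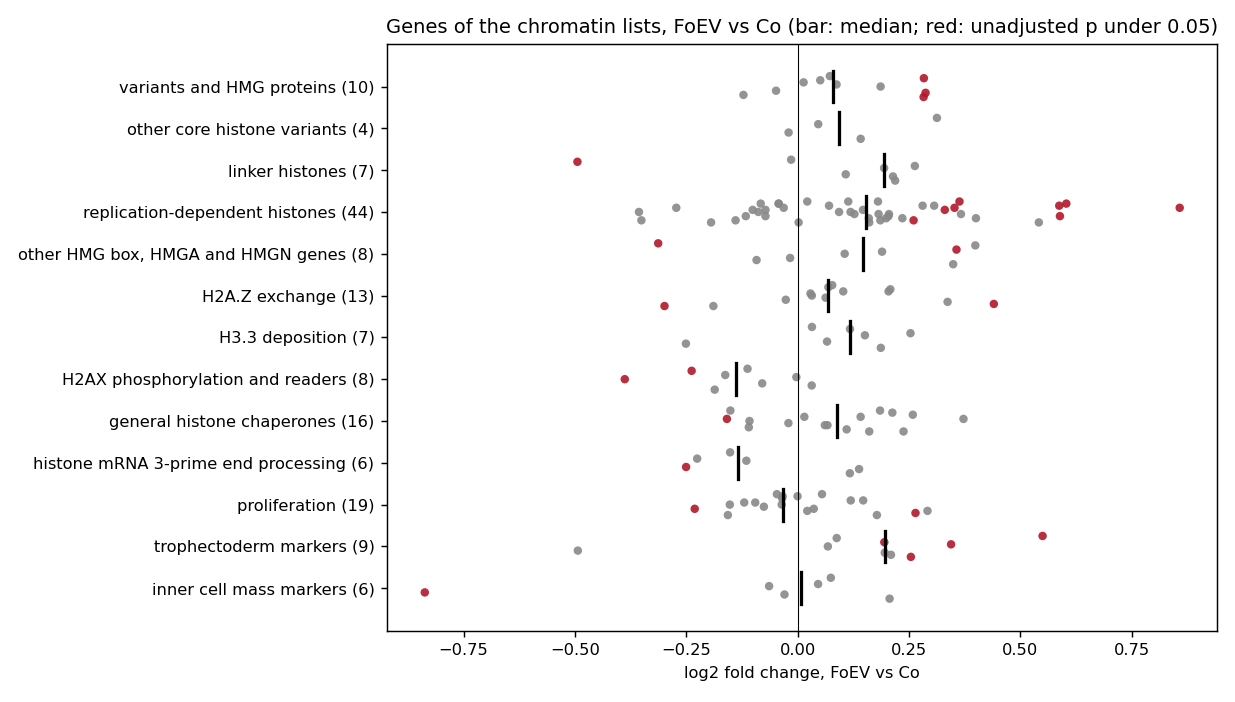
Log2 fold changes in FoEV treatment vs. Co for each gene of the members and of the linked gene lists, with list medians. The median is 0.08 for the 10 members, 0.15 for the 44 replication-dependent histones and -0.14 for the 8 H2AX kinases and readers, beside 0.01 for all genes.

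Genes of histone supply had medians between -0.13 and 0.09 in FoEV treatment vs. Co. Of 6 genes of histone mRNA processing, 4 were below 0 (median -0.13), with NPAT, the S-phase activator of clustered histone genes, at -0.25 (adjusted p = 0.282, edgeR) and CASP8AP2 at -0.23. Of 16 general histone chaperones 11 were above 0 (median 0.09). NAP1L1, a chaperone of H2A and H2B, had -0.16 (adjusted p = 0.325, edgeR), and its relative NAP1L4 had 0.21. Of 19 proliferation genes 11 were below 0 with a median of -0.03, BUB1 of the mitotic checkpoint having -0.23 (adjusted p = 0.219) and the replication helicase subunit MCM5 0.26 (adjusted p = 0.282).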

How the data were processed

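Low-input total RNA of embryo pools was sequenced with single-end reads of 125 bases, after removal of ribosomal fragments and strand selection in the kit. The authors deposited read counts per gene, without normalization, for 34773 genes and for the 10832 that they kept after filtering low CPM. The reads were mapped to ARS-UCD1.2 with the NCBI annotation. The study's methods name QuasR Qcount for counting, while the submitters' processing notes name Trim Galore 0.4.3.1, HISAT2 2.1.0 and featureCounts 1.6.3; the use of strand and the handling of reads with several matches are not given in the sources used here. The labels give day 7, the study's text a day more.

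The titles gave the treatment of each library. The pool number is the number that ends a library's label, and the labels do not say that it marks a pool, culture run or batch. That the pools came from separate culture runs is not stated, so p-values measure the spread between these pools. Counts of the filtered table were scaled with TMM factors and fitted over all 15 libraries in edgeR 4.0.16 (R 4.3.3) with estimateDisp, glmQLFit (robust) and glmQLFTest. P-values were adjusted by Benjamini-Hochberg over 10832 genes, and 95% intervals follow from the fit's SE and degrees of freedom. Paralog ratios (0.5 counts added) were compared by two-sided exact permutation tests (SciPy 1.17.1) and adjusted over 12 tests. Alternatives were DESeq2 1.42.0, its size factors, the unfiltered table, robust dispersion with a likelihood ratio test (the one the study's methods name), fits of the compared treatments alone, replicate or pool number as a block, thinning to 2136713 counts, omission of 5 rRNA genes, and omission of each library. On simulated counts of 10832 genes for FoEV vs. Co, 200 of them given a log2 change of 1, 80.5% of these 200 were called by the quasi-likelihood test, and 6.94% of its calls were false. Every member difference was smaller than a log2 change of 1. Smaller changes were not simulated, so the share called does not tell whether changes of the members' size would be called.

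Gene identifiers were matched to symbols of a RefSeq table of a later assembly (10709 of 10832), so no coordinates are given. Replication-dependent histones were taken by their symbols there (63 genes, 57 in the unfiltered and 44 in the filtered table). Besides all members, the text names the 2 genes of smallest p in FoEV vs. Co per list and the 3 genes most like the members' mean; 1 gene that this rule names is not reported here. Members and lists were chosen with earlier results of these data known. Counting intervals and floors cover counting error only.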

Additional observations from a re-analysis of the deposited data

Results flagged for a closer look

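H2AZ1 in Co replicate 1, at 158 CPM, stood apart from the other 4 Co libraries, which had 204 to 207 CPM. The gap to the nearest of them was 0.940 of the group's range, above Dixon's 95% critical value of 0.71. It was the only such value among 42 groups tested, which held the 10 members' CPM and the 4 paralog ratios in 3 treatments, and chance gives about 1 in 20. Without this library the log2 fold change of H2AZ1 in FoEV treatment vs. Co was -0.05, against 0.01 with it, and neither passed the test.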

How the results depend on the processing

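No member had an adjusted p under 0.05 under any alternative, the lowest being 0.0741. The number of all genes called in FoEV vs. Co, 1 in the fit reported, was 144 with DESeq2, 6 with thinned counts, 5 with the compared treatments alone, 12 with the pool number as a block, 311 with robust dispersion and the likelihood ratio test, 173 in the unfiltered table, and 0 to 58 without 1 library (58 without FoEV replicate 2). In FeEV vs. Co it was 0, and 1, 6, 13 and 0 to 1 with DESeq2, the likelihood ratio test, the unfiltered table and 1 library left out. In FoEV vs. FeEV it was 0, and 3, 1, 31, 22 and 0 to 1 with DESeq2, the pool block, the likelihood ratio test, the unfiltered table and 1 library left out. On simulated counts with no change the likelihood ratio test made 5 calls and the other tests 0. In the linked lists, where the fit reported called no gene, FoEV vs. Co gave 1 trophectoderm marker with DESeq2, the replicate block, the likelihood ratio test, the unfiltered table and without FoEV replicate 2, 1 inner cell mass marker with DESeq2 and the likelihood ratio test, and 1 hypoblast marker and 2 replication-dependent histones with the likelihood ratio test. Members at an unadjusted p under 0.05 numbered 1 with the pool block and 1 to 3 with 1 library left out in FoEV vs. Co (1 without FoEV replicate 3), 0 and 0 to 2 in FeEV vs. Co, and 1 with the likelihood ratio test and 0 to 1 with 1 library left out in FoEV vs. FeEV. HMGB2 passed it in FeEV vs. Co without Co replicate 5 (0.24). Same-numbered replicates were not treated as pairs, since the labels do not tie numbers to oEV preparations. The r of their deviations was -0.291 to 0.347 in FoEV vs. Co (mean 0.034, other pairs -0.008). It was -0.214 to 0.420 in FeEV vs. Co (mean 0.138, other pairs -0.034). In FoEV vs. FeEV it was 0.0134 to 0.441 (mean 0.186, other pairs -0.046), where all 5 were above 0 but not all over 0.1. A pairing is therefore not excluded. With the replicate number as a block 57 genes were called in FoEV vs. Co and 0 in the others, and the unadjusted member counts were 3, 1 and 0. Of 720 alternative values of the members' log2 fold changes 33 turned in sign, none of them called. In FoEV vs. Co these were H2AZ1 (-0.012 thinned, -0.070 pool block, -0.018 likelihood ratio test, -0.070 to 0.065 without 1 library), H3-3B (-0.00095 thinned, -0.0044 to 0.11) and HMGN3 (-0.0059 to 0.19). In FeEV vs. Co they were H2AZ1 (-0.00983 thinned, -0.076 pool block, -0.041 to 0.061), H2AZ2 (-0.020 pool block), H3-3A (-0.0079 pool block, -0.0091 to 0.062), H3-3B (-0.097 to 0.0020) and HMGN2 (-0.058 to 0.030). In FoEV vs. FeEV they were H2AZ1 (0.0064 pool block, -0.093 to 0.038), HMGB1 (-0.0019 likelihood ratio test, -0.060 to 0.069), HMGN1 (-0.047 to 0.094) and H2AZ2 (-0.029 to 0.19). The log2 ratio of HMGB1 to HMGB2 in FoEV vs. Co was -0.067 to 0.098, and that of HMGN1 to HMGN2 in FoEV vs. FeEV -0.11 to 0.015, without 1 library. The causes were not tested. Levels per transcript length were not computed, since transcript lengths were not used here. Between 49 and 1290 counts per member and library limit what small differences can be seen.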
